A study of Mus musculus with 24 samples.

Results

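Iap is the transcript of the intracisternal A particles of the mouse. It was read by 1 probe, ILMN_1225712, the only one of the 25697 probes of an Illumina mouse expression array whose symbol in the deposited annotation is Iap. The samples were 24 liver arrays, 12 of control mice and 12 of mice labelled as DNMT1 knockout. Each genotype was sampled at 4, 8 and 20 weeks, and each of the 6 groups had 4 arrays. The labels give neither strain, sex, the cells that lost Dnmt1 nor the alleles of the controls, and do not tie arrays to separate animals, so every p-value below measures only a spread between arrays that may be technical. Values are linear intensity in the units of the deposited table, and differences are knockout minus control in log2(intensity + 16), a scale that compresses weak signals. Iap was chosen by its intensity in these same groups, which was high in knockouts. Its levels and its differences between genotypes and weeks are therefore given as a description, without a test.

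Intracisternal A particles are endogenous retroelements present in very many copies in the mouse genome, each with long terminal repeats that serve as promoters. In normal adult tissue most copies are kept silent by DNA methylation, which DNMT1 copies onto the new strand each time DNA is replicated, and by repressive chromatin laid down through TRIM28 and SETDB1. Transcripts of the element are made into particles that bud into the endoplasmic reticulum and, as a rule, stay in the cell. One probe for a repeated element may bind transcripts of many copies at once. The signal therefore gives no genome position and does not say how many copies, or which, were transcribed. The annotation pairs the probe with the symbol alone, and no sequence of the probe was used here.

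The Iap probe went from a moderate signal in control liver to among the brightest probes of the array in young knockout liver, and fell back in part by week 20. In control livers of week 4 the intensity was 1618, 1768, 2258 and 1735 on replicates 1, 3, 4 and 5, with a mean of 1845 ± 283 (SD, n = 4). In knockout livers of that week it was 29841, 28346, 30037 and 28951 on replicates 1, 3, 4 and 5, with a mean of 29294 ± 789 (SD, n = 4). All knockout arrays of week 4 lay far above all control arrays, and the lowest of them was 12.6-fold above the highest control. The ratio of means was 15.9, and the log2 difference was 3.99 ± 0.11 (SE).

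At week 8 the control level was lower and the knockout level slightly higher than at week 4. Control replicates 2, 3, 4 and 5 read 1028, 1451, 985 and 1052, with a mean of 1129 ± 216 (SD, n = 4). Knockout replicates 1, 2, 3 and 4 read 32969, 30845, 30845 and 34212, with a mean of 32218 ± 1664 (SD, n = 4). The genotypes were again far apart, the lowest knockout array standing 21.3-fold above the highest control array. The ratio of means was 28.5, and the log2 difference was 4.83 ± 0.13 (SE). Replicates 2 and 3 of the knockout have the same value, and on both arrays Iap held rank 17 from the brightest, which share 1 intensity across arrays in the deposited table.

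At week 20 the knockout livers held less Iap signal and varied more among themselves. Control replicates 1, 2, 3 and 4 read 1536, 847, 2065 and 1600, with a mean of 1512 ± 502 (SD, n = 4). Knockout replicates 1, 2, 3 and 4 read 5856, 12156, 14431 and 6266, with a mean of 9678 ± 4281 (SD, n = 4). Replicates 2 and 3 of the knockout were high and replicates 1 and 4 low, a span of 2.46-fold within the group, yet the lowest was still 2.84-fold above the highest control. The ratio of means was 6.40, and the log2 difference was 2.62 ± 0.43 (SE). The mean knockout intensity at week 20 was 30.0% of that at week 8, and 54.3% of the week 8 difference was left on the log2 scale.

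**Figure D1:**
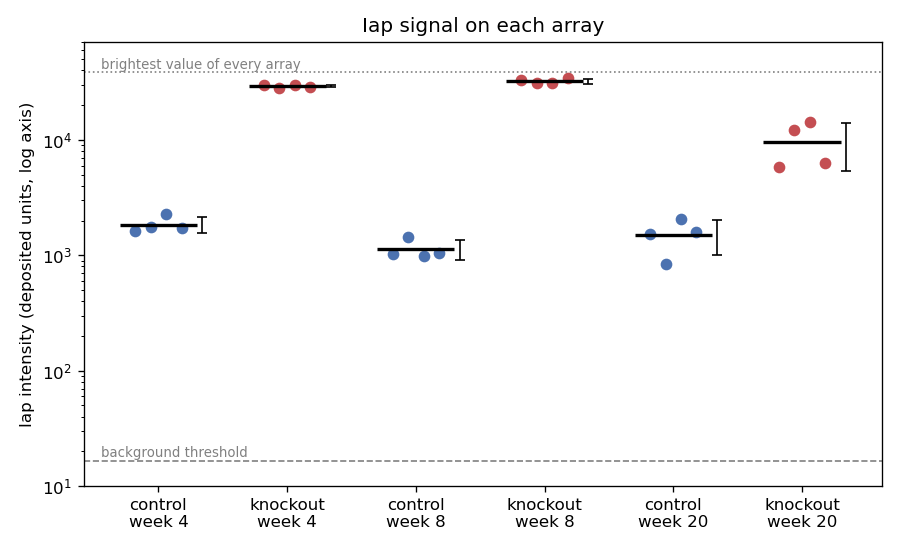
Iap intensity (deposited units, log axis) on each of the 24 arrays by genotype and week; points are arrays, horizontal bars are group means and the whiskers beside them are 1 SD (n = 4). The knockout arrays of weeks 4 and 8 sit between 28346 and 34212, just under the brightest value of the arrays, those of week 20 between 5856 and 14431, and all control arrays between 847 and 2258.

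Ordered by mean, the groups ran from knockout week 8 through knockout week 4, knockout week 20, control week 4 and control week 20 to control week 8. The 2 young knockout groups did not overlap, but they were close, with a log2 difference of 0.14 ± 0.04 (SE) against SDs of 0.07 at week 8 and 0.04 at week 4. Knockout week 20 lay 1.71 ± 0.33 (SE) below knockout week 4 and 1.84 ± 0.33 below knockout week 8 in log2, with no overlap in either case. Among controls, week 20 overlapped both other weeks and differed from them by less than its own SD of 0.54. Control arrays of week 4 all lay above those of week 8, by 0.71 ± 0.16 (SE) in log2. Over all 12 control arrays the signal spanned 2.67-fold, and the lowest knockout array of any week was 2.59-fold above the highest control array of any week.

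Iap was not silent in control liver. Its lowest control value was 51.8 times the background threshold of 16.3, and all 24 arrays were above that threshold. On control arrays it ranked between 1158 and 2501 from the brightest of the 25697 probes, on knockout arrays of week 4 between 21 and 29, of week 8 between 6 and 17, and of week 20 between 138 and 452. The young knockout values reached 73.3% to 88.4% of the brightest value, 38683, which is the same on every array. On such a scale the ratio of means could not have exceeded 21.0 at week 4 or 34.3 at week 8, whatever the amount of transcript, so 15.9 and 28.5 lie near the most that the table can show. The narrow spread of the young knockout groups, a coefficient of variation of 2.69% at week 4 and 5.17% at week 8 against 15.3% to 33.2% in the 3 control groups, was likewise measured close to the top of the scale. At week 20 the knockout group lay lower on the scale and its coefficient of variation was 44.2%.

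The array named 17893 genes, of which 10733 were above background on at least 4 arrays and could be tested. Among these the Iap difference was number 36 from the top at week 4, number 32 at week 8 and number 10 at week 20. Of the 31 genes with a larger rise than Iap at week 8, 5 also had a larger difference at week 20. These 31 genes kept a median of 16.2% of their week 8 difference at week 20, against 54.3% for Iap. Both shares are limited as a comparison, since the 31 genes were taken for a large week 8 value and that of Iap was bounded by the top of the scale. Over all genes, the knockout difference changed between weeks 4 and 8 for 8.94% and between weeks 8 and 20 for 31.2% (limma interaction contrasts). Knockout arrays did not overlap control arrays, and were higher, for 15.8% of genes at week 4, 22.6% at week 8 and 5.6% at week 20. They did so at each of the 3 weeks for 166 genes, or 1.55%, and 1.34% passed limma as higher at each of them. Iap is among the 166 by the values that led to its choice. Knockout arrays were lower without overlap for 14.1%, 21.4% and 4.5% of genes at weeks 4, 8 and 20.

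**Figure D2:**
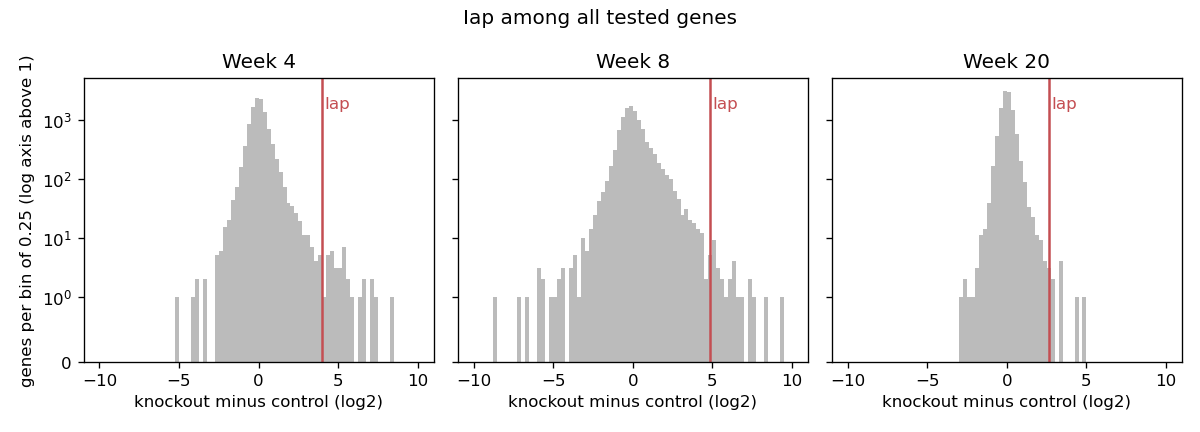
Histograms of the knockout minus control difference (log2, x axis) of all 10733 tested genes at each week, as genes per bin of 0.25 on an axis that is logarithmic above 1; the red line marks Iap. Iap lies in the far right tail at 3.99, 4.83 and 2.62, and the distribution is widest at week 8 and narrowest at week 20.

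Some arrays stood apart from their groups in other genes. Over 5 acute phase genes the mean log2 signal was 13.8 and 13.7 in control week 20 replicates 3 and 4, but 8.53 and 8.70 in replicates 1 and 2. The Iap values of replicates 3 and 4, 2065 and 1600, were the highest of the group. Without them the Iap difference at week 20 was 2.96 in place of 2.62. Eif2s3y, a gene of the Y chromosome, was at 9.13 to 9.27 in log2 in knockout week 8 replicates 1 to 3 and at the floor of 4.00 in replicate 4. That array had the highest Iap value of all, and without it the week 8 difference was 4.80 in place of 4.83.

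The livers were mixtures of cells, and in bulk RNA a change in the number of cells of a type and a change in the RNA per cell cannot be told apart. The labelled tissue was checked by its markers: all 8 hepatocyte markers were detected. Their summed intensity, carried mainly by Apoa1, Ttr and Cps1, was 70235 to 83510 in knockout and 76506 to 83498 in control livers at week 4, 76005 to 83368 and 77471 to 86067 at week 8, and 79682 to 88956 and 64966 to 85582 at week 20. These sums overlapped, but limma called 4 of the 8 markers lower in knockouts at week 4, 5 at week 8 and 1 at week 20, and 0 higher, with a median difference of -0.39, -1.22 and 0.07. Over all genes, 12.4%, 24% and 2.25% were called lower at these weeks. Alb, serum albumin, had the largest week 8 fall of the 8, from 925 to 997 in control to 92.8 to 145 in knockout livers. Apoa1, Ttr and Cps1 differed by 0.23, 0.04 and -0.15 at week 8 and were not called at any week. The Alb probe was dim beside that of Apoa1, which read 23553 to 27395 in the same controls. Macrophage markers, 8 of 8 on the array with Cd5l above background on none, summed to 5906 to 8826 in knockout and 2963 to 3876 in control livers at week 4. Their sums were 7031 to 14141 and 2433 to 3272 at week 8, and 1949 to 4445 and 1713 to 4066 at week 20, when the genotypes overlapped. Markers of dividing cells, 4 of 5 on the array, summed to 1071 to 2043 and 322 to 1009 at week 4, 1347 to 2834 and 45.4 to 83.1 at week 8, and 155 to 206 and 42.2 to 81.7 at week 20, knockout before control. T cell markers summed to 113 to 156 and 44.7 to 106 at week 4, 167 to 293 and 49.1 to 91.4 at week 8, and 79.2 to 217 and 55.1 to 83.7 at week 20, with Cd4 and Cd8a above background on no array. B and plasma cell markers, 5 of 7 on the array with Ms4a1 and Jchain above background on none, summed to 63.2 to 80.2 and 49.6 to 117 at week 4, 125 to 227 and 35.9 to 70.7 at week 8, and 47.3 to 107 and 50.6 to 59.4 at week 20. Limma called 0 of the 4 tested T cell markers higher at week 4, 3 at week 8 and 0 at week 20. The 1 tested B and plasma cell marker was called higher at week 8 only. Of all genes, 14.8%, 24.9% and 3.45% were called higher at the 3 weeks. The weeks at which these marker sums separated differed between cell types, but the T and B cell sums were made of weak signals. Biliary markers, 4 of 5 on the array, summed to 1702 to 2404 and 455 to 720 at week 4, 1988 to 3454 and 335 to 554 at week 8, and 396 to 1131 and 399 to 675 at week 20. These biliary sums were carried mainly by Spp1, at 1671 to 2376 in knockouts at week 4. Krt7 differed by -0.12, -0.24 and -0.59 at the 3 weeks. Sox9, above background on 2 control and 7 knockout arrays, differed by 0.67, 0.96 and -0.16. Stellate cell markers, 6 of 6, summed to 1231 to 1988 and 409 to 1548, 2366 to 3568 and 224 to 347, and 490 to 1138 and 242 to 712 at the 3 weeks. Endothelial markers, 5 of 5, overlapped between genotypes at each week, at 646 to 1318 over all arrays. The part of these cell types in the Iap signal was not tested.

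Other genes share the alias IAP and have probes of their own. Cd47, the integrin-associated protein, ranged from 760 to 1023 in controls and 1032 to 1196 in knockouts at week 4, from 839 to 1052 and 1072 to 1811 at week 8, and from 821 to 1051 and 870 to 1052 at week 20. Its genotypes did not overlap at weeks 4 and 8 and overlapped at week 20. Akp3, an intestinal alkaline phosphatase, was above background on 1 of 24 arrays, and Magt1, a magnesium transporter subunit, on 3. Genes of the mouse that descend from retroelements, picked for this comparison after the data were seen, were at background on nearly all arrays. The probes of Peg10, Rtl1 and Rtl5, which derive from the gag gene of old retrotransposons, were above background on 0 of 24 arrays. The 3 probes of Fv1, a retrovirus restriction gene of endogenous retroviral origin, were above it on 3, 1 and 1 arrays.

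The genes whose signal was most like that of Iap over the 24 arrays were mainly genes of germ cells and bone that lay at background in control liver. By Pearson correlation of log2 values they were Rhox5 (0.98), a homeobox gene on the X chromosome active in testis, Bglap3 (0.97) and Bglap1 (0.96), genes of the osteocalcin family, and Magea2 (0.96) and Magea5 (0.96), of the MAGE family of germ cell antigens. Dpep3 (0.96), a testis dipeptidase, Ly6d (0.95), a surface protein, LOC100046953 (0.95), Gpnmb (0.95), a macrophage membrane protein, and Anxa5 (0.94), annexin A5, completed the 10. These correlations mostly follow the 6 group means that all points share. For deviations from the group means, the correlation of the same 10 genes with Iap ran from -0.14 for Anxa5 to 0.42 for Rhox5.

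Iap differed from most of these genes in its control level. Of the 10, 5 were above background on 0 of the 12 control arrays (Bglap3, Magea2, Dpep3, Bglap1 and Magea5), Rhox5 and Gpnmb on 1 and Ly6d on 5, and only LOC100046953 and Anxa5 were, like Iap, above it on all 12. Between weeks 8 and 20 the difference of Rhox5 went from 7.47 to 4.44, that of Bglap3 from 7.40 to 4.89 and that of Ly6d from 8.26 to 2.05. Iap kept 54.3% of its week 8 difference, within the 24.8% of Ly6d and the 66.1% of Bglap3 that bound the 10 genes. For genes near the floor of the scale in controls these shares depend on the offset of 16.

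Among the knockouts of week 8 these genes varied more from array to array than Iap, whose values lay between 30845 and 34212, near the top of the scale. Rhox5 read 5688, 2324, 5269 and 2254 on replicates 1, 2, 3 and 4, high on replicates 1 and 3 and low on 2 and 4. Bglap3, at 6303, 2464, 4207 and 2036, and Magea2, at 1415, 491, 1242 and 497, had the same order of high and low arrays. Iap was highest on replicate 4, where Rhox5 and Bglap3 were lowest, but so near the top of the scale its order does not show whether it varied with them. At week 20 Rhox5 read 455, 427, 624 and 354 and Bglap3 317, 480, 685 and 550, so that replicate 3 was highest for both as it was for Iap. Magea2 read 78.3, 138, 162 and 266 and was highest on replicate 4.

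**Figure D3:**
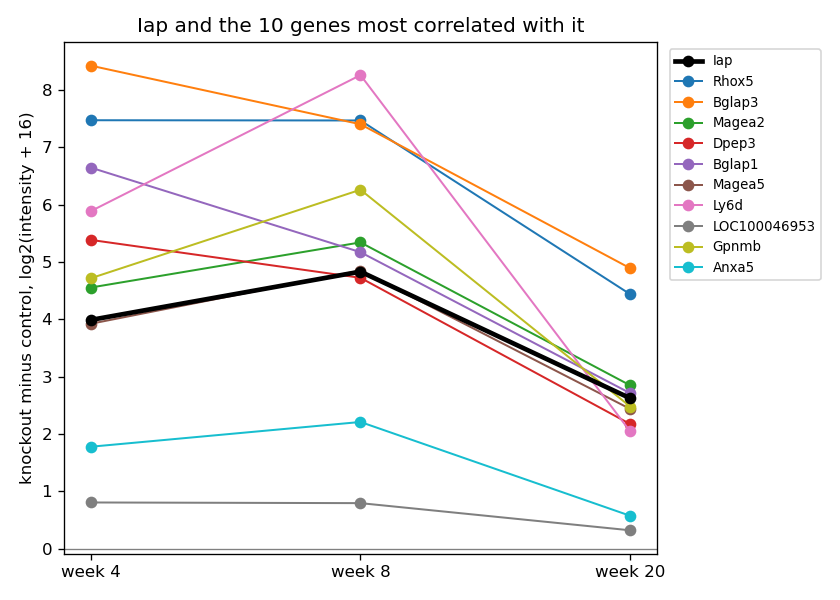
Knockout minus control difference in log2(intensity + 16) at weeks 4, 8 and 20 for Iap (black) and the 10 genes most correlated with it over 24 arrays. Iap runs from 3.99 to 4.83 to 2.62, in the middle of genes whose differences at week 20 range from 0.32 for LOC100046953 to 4.89 for Bglap3.

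Within groups, where the genotype and week play no part, the genes that varied most like Iap were others. The correlation of deviations was 0.84 for Wscd2, 0.79 for Bad, a promoter of cell death, 0.78 for Smdt1, a subunit of the mitochondrial calcium channel, 0.77 for Siah1b, a ubiquitin ligase, and 0.73 for Mif4gd. These values rest on 24 arrays and were the highest among all genes tested, and the groups of week 20, where Iap spread most (SD 0.54 and 0.66 in log2), weigh most in them. Wscd2 was above background on 2 control and 3 knockout arrays.

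Tex19.1, a germ cell gene that holds retroelements in check and is itself silenced by methylation in body tissues, was at background on all but 1 control array and higher in knockout liver at all 3 weeks. Its knockout intensity ranged from 1783 to 2162 at week 4, from 706 to 2817 at week 8 and from 17.4 to 45.4 at week 20, against -8.19 to 17.1 in all control arrays. Its difference was 6.41 at week 4, 6.32 at week 8 and 1.63 at week 20. It reached the tested genes only through the knockout arrays, so its p-values are not given. Of the week 8 difference 25.8% was left at week 20, against 54.3% for Iap, a contrast that was not tested. Dazl, an RNA-binding protein of germ cells, was above background on 3 knockout arrays only, at up to 28.6, and was not tested. RefSeq promoter windows of GRCm38.p6, 250 bases before to 50 after the start, are shown for Rhox5, the gene most like Iap, and for Tex19.1, with each CG, the dinucleotide whose methylation DNMT1 copies, in capitals. Iap has no entry in that table.
Rhox5, chrX:37754358-37754657, plus strand: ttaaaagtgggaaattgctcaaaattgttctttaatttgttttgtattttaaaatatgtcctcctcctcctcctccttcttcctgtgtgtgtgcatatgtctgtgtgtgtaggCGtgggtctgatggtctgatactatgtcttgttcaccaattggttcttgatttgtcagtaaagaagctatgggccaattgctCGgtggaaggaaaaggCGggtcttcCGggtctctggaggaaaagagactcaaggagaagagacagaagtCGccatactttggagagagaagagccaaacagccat
Tex19.1, chr11:121145893-121146192, plus strand: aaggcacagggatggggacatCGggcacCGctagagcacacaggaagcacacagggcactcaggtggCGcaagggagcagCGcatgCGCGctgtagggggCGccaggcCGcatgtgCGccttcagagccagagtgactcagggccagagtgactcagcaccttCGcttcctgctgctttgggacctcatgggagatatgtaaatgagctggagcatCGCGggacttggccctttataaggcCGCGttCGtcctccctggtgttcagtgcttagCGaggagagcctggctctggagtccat
The Rhox5 window holds 5 and the Tex19.1 window 16 CG, against a median of 7 over 32851 windows. At least as many are found in 62.0% of windows for Rhox5 and in 33.0% for Tex19.1, and 94.6% of windows hold a CG. CG reads the same on both strands, and the counts say nothing of whether these sites were methylated in these livers.

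The silencing machinery of retroelements moved in both directions in young knockout liver. Uhrf1, which brings DNMT1 to newly replicated DNA, was higher in knockouts by 1.45 ± 0.38 at week 4 (limma adjusted p = 0.0053). At week 8 it was higher by 3.49 ± 0.38 (limma adjusted p = 4.0e-08). Its mean log2 signal at weeks 4 and 8 was 8.21 and 8.39 in knockouts, and 6.76 and 4.90 in controls. The larger week 8 difference thus came mainly with a lower control level. Its difference at week 20 was 0.16 ± 0.38 (limma adjusted p = 0.85), and its week 4 call was lost after a second quantile normalization. Chaf1b, a chromatin assembly factor, rose by 1.65 ± 0.23 at week 8 (adjusted p = 2.1e-06), and Atf7ip, a partner of SETDB1, rose by 0.60 ± 0.14 in the week 4 and 0.75 ± 0.14 in the week 8 comparison (0.0017 and 6.5e-05). Ehmt1, a histone H3 lysine methyltransferase, read 32.5 to 42.8 in controls and -0.70 to 11.6 in knockouts at week 4. At week 8 it read 65.2 to 80.7 and -0.74 to 12.4, so these knockout values were under the background threshold. Ehmt1 was above background on 12 control and 3 knockout arrays. It could be tested only because of the control arrays and is given as values. A second Ehmt1 probe was above background on 1 array. The markers of dividing cells moved with Uhrf1 and Chaf1b: limma called 3 of 4 higher at week 4, 4 of 4 at week 8, by 3.32 (Birc5) to 4.47 (Prc1), and 1 at week 20. Over all genes, 14.8%, 24.9% and 3.45% were called higher at these weeks. The part of dividing cells in the values of Uhrf1 and Chaf1b was not tested.

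The core of the repressor complex did not pass the test. Trim28 differed by 0.32 ± 0.12, 0.06 ± 0.12 and 0.23 ± 0.12 at weeks 4, 8 and 20 (limma adjusted p = 0.054, 0.70 and 0.28). Setdb1 differed by 0.00 ± 0.19, -0.07 ± 0.19 and 0.01 ± 0.19 (limma adjusted p = 0.99, 0.79 and 0.99). Dnmt1 itself differed by -0.25 ± 0.19, -0.30 ± 0.19 and -0.58 ± 0.19 (limma adjusted p = 0.36, 0.20 and 0.074). Whether its probe falls inside the deletion is unknown here, so these values do not check the knockout.

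Of 35 silencing factors, 31 had a probe and 23 could be tested. At week 4, 7 were higher and 3 lower, or 43.5% called, against 27.2% of all genes (14.8% higher and 12.4% lower). At week 8, 7 were higher and 5 lower, or 52.2%, near the 48.9% of all genes (24.9% higher and 24% lower). Ehmt1, tested only because of the control arrays, is among those called lower at weeks 4 and 8 and counts in these shares. At week 20, 0 were called by limma in either direction, with 7 at an unadjusted p under 0.05, against 5.69% of all genes called (3.45% higher and 2.25% lower). The median difference was 0.18, 0.06 and 0.12 at the 3 weeks, against -0.01, -0.07 and 0.00 over all genes.

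Among germ cell genes of retroelement defence, most of them in the piRNA pathway, some were far higher in young knockout liver and others were not. Tex19.2, the paralog of Tex19.1, was below 0 on every control array and read 548 to 879 in knockouts at week 4, 294 to 1553 at week 8 and -4.56 to 38.9 at week 20. Asz1, a piRNA pathway scaffold, was at most 17.9 in controls and read 128 to 230, 137 to 642 and -1.56 to 22.2 in knockouts at the 3 weeks. Piwil2, which binds piRNAs, was at most 19.9 in controls and read 68.4 to 117, 7.81 to 72.1 and -4.83 to 3.98. These 3 genes and Tex19.1 were above background on 0 to 2 control arrays and could be tested only because of the knockout arrays, so they are given as values. The probes of Tex19.1 and Tex19.2 may each bind transcripts of the other.

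Of 22 germ cell genes on the list 18 had a probe, 9 of these did not reach background on enough arrays, and 9 were tested. At week 4, 5 were called higher and 0 lower, at week 8, 5 higher and 1 lower, and at week 20 only Tex19.1 was called. Over all genes, 14.8% were called higher and 12.4% lower at week 4, 24.9% and 24% at week 8, and 3.45% and 2.25% at week 20. With 4 of the 5 higher genes tested only through the knockout arrays, these counts support nothing about the list. Among the other 5, Tdrd7, a scaffold of germ granules chosen here after its values were seen, was higher by 0.83 and 0.52 at weeks 4 and 8 (limma adjusted p = 3.1e-05 and 0.0018). Ddx4, a germ cell RNA helicase also chosen so, is the 1 gene called lower at week 8, where it fell by 0.84. Its knockout values at that week were 0.973 to 10.2, under the background threshold. It was above background on 4 control and 2 knockout arrays. It could be tested only because of the control arrays and is given as values.

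Restriction factors, which block or degrade retroelement products in body cells, were mostly higher in the young knockouts. Like the other lists, this one was chosen with earlier results of these data known, and the genes named here were taken for their low p. Samhd1, which depletes nucleotides, rose by 0.70 ± 0.16 in week 4 and 1.49 ± 0.16 in week 8 livers (limma adjusted p = 0.0015 and 2.5e-08). Apobec1, a cytidine deaminase, rose by 0.85 ± 0.21 and 1.50 ± 0.21 (limma adjusted p = 0.0031 and 1.6e-06), and Trim30a rose by 1.47 ± 0.28 and 2.03 ± 0.28 (adjusted p = 2.5e-04 and 1.3e-06). Rnaseh2c went the other way. It encodes a subunit of RNase H2, which cleaves RNA paired with DNA, and its signal was 330 to 501 in controls and 69.0 to 135 in knockouts at week 4. It fell by 1.73 on the log2 scale at that week and fell by 1.57 at week 8 (limma adjusted p = 9.5e-07 and 1.0e-06). At week 20 its knockout range of 248 to 408 overlapped the control range of 295 to 393.

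Of 18 restriction factors 16 had a probe and 14 were tested, and 8 were higher and 1 lower at each of weeks 4 and 8. At week 20 limma called 0 in either direction, with 0 at an unadjusted p under 0.05. The 9 called are 64.3% of the 14, against 27.2% of all genes at week 4 and 48.9% at week 8. Of the 14, 2 (Apobec3 and Isg20) could be tested only through the knockout arrays. Apobec3 is among the 8 called higher at weeks 4 and 8, so the called share rests in part on it. The median difference was 0.59, 0.74 and 0.09 at the 3 weeks, against -0.01, -0.07 and 0.00 over all genes. Given how the list was chosen, these shares and medians are a description. The macrophage marker sums given above were higher in the knockouts of weeks 4 and 8, and their part in these counts was not tested.

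Sensors of foreign nucleic acid and their signalling partners gave a similar count. Irf7, a transcription factor of the interferon response, rose by 2.21 ± 0.23 in week 4 livers (limma adjusted p = 8.0e-08). It rose at week 8 from 134 to 176 in controls to 395 to 789 in knockouts (limma adjusted p = 9.4e-08). Dhx58, a member of the RIG-I family, rose by 1.43 ± 0.20 and 1.41 ± 0.20 (limma adjusted p = 5.3e-06 and 1.7e-06), and Eif2ak2, the kinase PKR, rose by 1.31 ± 0.18 and 1.42 ± 0.18 (adjusted p = 6.6e-06 and 5.6e-07). Tlr7, the endosomal receptor of single-stranded RNA, rose by 0.75 ± 0.25 and 2.49 ± 0.25 (limma adjusted p = 0.028 and 1.3e-08), and Unc93b1, which carries it to endosomes, by 0.60 ± 0.16 and 1.31 ± 0.16 (adjusted p = 0.0056 and 2.5e-07). The week 4 call of Tlr7 was lost without the filter on dim probes and without any 1 of 5 of the 8 arrays. Of 18 listed genes 16 had a probe and 13 were tested. Of these, Oas1a was tested only through the knockout arrays, and Ifi204 only through 3 control and 3 knockout arrays together. Limma called 8 higher and 1 lower at week 4, 8 higher and 2 lower at week 8, and 0 at week 20. At week 20, 3 had an unadjusted limma p under 0.05. Oas1a, above background in knockouts alone, is among those called higher at weeks 4 and 8 and counts in the called shares. The called shares, 69.2% at week 4 and 76.9% at week 8, stand against 27.2% and 48.9% of all genes, and 5.69% of all genes were called at week 20. The list's median difference was 0.70, 0.85 and -0.08, against -0.01, -0.07 and 0.00 over all genes. Macrophages express several of these genes, and the macrophage marker sums given above were higher in the same groups; their part in these counts was not tested.

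**Figure D4:**
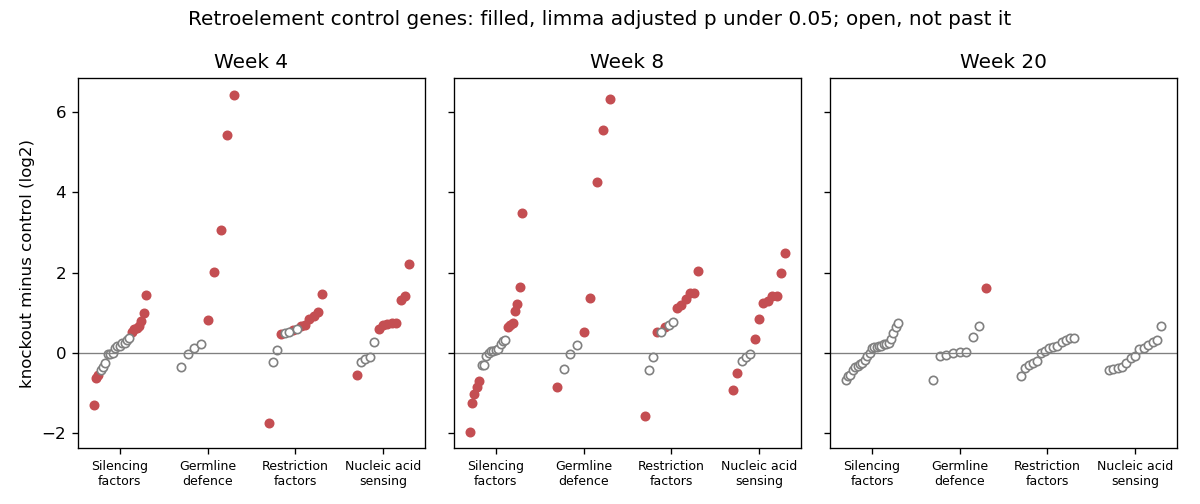
Knockout minus control difference (log2) of the tested members of 4 gene lists at each week, 1 point per gene; filled points passed a limma adjusted p of 0.05 and open points did not. At weeks 4 and 8 called genes stand on both sides of 0 among the silencing factors, and at week 20 the single filled point is Tex19.1 at 1.63.

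At week 20, when Iap still differed by 2.62, 1 of the 59 tested members of these 4 lists was called, against 5.69% of all genes. The count of all genes called at that week was itself unsteady, with 611 of 10733 in the fit of all arrays, 307 without the 2 control arrays of high acute phase signal and 131 in a fit of the 8 arrays of week 20 alone.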

How the data were processed

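RNA of mouse liver, in 24 samples, was made into biotin-labelled cRNA for an Illumina expression array, per the labels' protocols. The authors deposited linear intensity for 25697 probes, made with GenomeStudio 2011 per the submitters' processing notes; 27.8% of values lay below 0 and all arrays had the same highest value and medians of 13.3 to 13.6, a pattern that background subtraction and quantile-type normalization leave. A non-normalized table, whose 48 signal and detection columns carry no sample names of the labels, was used only to pair probes with symbols.

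Here values were set to at least 0 and taken as log2(intensity + 16). A probe counted as above background over 16.3, the noise SD of 7.03 (root mean square of negative values) times 2.33. Probes above it on at least 4 arrays were kept (14536) and the one of highest mean stood for its gene (10733 genes). Symbols were updated through a RefSeq table of GRCm38.p6. One limma 3.58.1 model (R 4.3.3) of 6 group means over 24 arrays, eBayes with trend, gave two-sided p-values adjusted by Benjamini-Hochberg over all genes at a threshold of 0.05; it was tested on simulated data. Iap itself was not tested. Same-numbered arrays had correlated deviations of -0.14 to 0.04, so arrays were not paired.

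The gene and the lists were chosen with earlier results of these data known. The named genes were the 10 most correlated with Iap, the 5 most correlated in deviations from group means, Dnmt1, Uhrf1, Trim28 and Setdb1. Also named were the 4 of lowest p at week 8 and 2 of lowest p at week 4 in each list, and Rhox5, Tex19.1 and Dazl. Cd47, Akp3, Magt1, Peg10, Rtl1, Rtl5, Fv1, Eif2s3y, Tdrd7, Ddx4, Apobec3, Isg20, Oas1a, Ifi204, Spp1, Krt7 and Sox9 were named after their values were seen. One gene that this rule names is counted in its list and not reported here. A planned list of other retroelement transcripts, by words in the annotation, found no probe. The number of arrays limits the precision.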

Additional observations from a re-analysis of the deposited data

Results flagged for a closer look

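Among 137 group values of the named genes in which all 4 arrays were above background, 5 groups held 1 array far from the other 3 by Dixon's test, and chance alone flags about 1 in 20 groups. Iap was high on 1 control array of week 8, at a log2 signal of 10.52. Magea5 was high on 1 knockout array of week 4 (8.26), Gpnmb low on 1 knockout array of week 4 (8.05), Irf7 high on 1 control array of week 8 (7.58) and Piwil2 high on 1 knockout array of week 4 (7.06).

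The knockout effect of 20 named genes of the 4 lists was compared between weeks by an interaction contrast in limma, adjusted over all genes. From week 4 to week 8, when 8.94% of all genes changed, it grew for Chaf1b (1.40), Samhd1 (0.79), Tlr7 (1.74) and Uhrf1 (2.04). Naming by low p at week 8 favours a larger effect at that week, so this number supports nothing. Mean log2 knockout signals went from 7.10 to 7.02 for Chaf1b and from 8.21 to 8.39 for Uhrf1. Their controls went from 6.85 to 5.37 and from 6.76 to 4.90. Knockout signals of Samhd1 and Tlr7 went from 8.08 to 8.77 and from 6.62 to 7.60. From week 8 to week 20, when 31.2% of all genes changed, most of the 20 did too, but most had been named for their low p at week 8, a choice that favours a smaller effect at another week, so their number supports nothing. The change was negative for Apobec1 (-1.12), Asz1 (-3.85), Chaf1b (-0.90), Dhx58 (-1.78), Eif2ak2 (-1.85), Irf7 (-2.13), Piwil2 (-1.43), Samhd1 (-1.36), Tex19.1 (-4.69), Tex19.2 (-4.85), Tlr7 (-1.82), Trim30a (-1.98), Uhrf1 (-3.33) and Unc93b1 (-1.39), whose signals had been higher in knockouts. It was positive for Ehmt1 (1.63) and Rnaseh2c (1.33), whose signals had been lower. Asz1, Piwil2, Tex19.1 and Tex19.2 reached the tested genes only through the knockout arrays, so their negative changes are given as values and support nothing. Ehmt1 reached them only through the control arrays, and its positive change is likewise given as a value. Iap, described without a test, changed by 0.84 between weeks 4 and 8 and by -2.21 between weeks 8 and 20.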

How the results depend on the processing

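The Iap difference kept its direction with an offset of 1 or 50, a second quantile normalization, the replicate block, and, at week 20, without the 2 control arrays of high acute phase signal, with 3.96 to 4.00 at week 4, 4.79 to 4.85 at week 8 and 2.59 to 2.96 at week 20; without 1 array in turn it was 3.93 to 4.09, 4.77 to 4.96 and 2.37 to 2.83. The count of all genes called at week 20, 611, was 394 with no filter on dim probes, 269 with the replicate block, 131 with the arrays of that week alone and 286 to 722 without 1 array in turn. It was 286 without control replicate 3, 308 without control replicate 4, 333 without knockout replicate 2 and 371 without knockout replicate 3. Without both control arrays of high acute phase signal, a setting chosen after seeing the data, it was 307. At week 20 the silencing list went from 0 calls to 1 and the germ cell list from 1 to 0 with an offset of 50, and the silencing list had 0 to 2 calls without 1 array in turn. The replicate block moved no other count by over 1.5 times. The labels do not say whether replicate numbers pair the arrays. The cause of these moves was not tested, apart from the smaller number of arrays or genes that some settings bring.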
